A study of Mus musculus with 8 samples.

Results

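The genes described here encode caspases that carry out apoptosis, the protein that activates one of them, and proteins that hold caspases in check. They are Casp2, Casp6, Casp8 and Casp9, the adaptor gene Apaf1, and the inhibitor genes Cflar, Birc3 and Xiap. Members were all probe sets whose platform annotation gave one of these 8 symbols alone, which selected 23 of the 45101 probe sets on the array. The rule uses symbols only, but the genes were picked with earlier results of these data known, so their counts are a description. They were compared between 2 sorted fractions of leukaemic spleen cells, called CD117pos and CD117neg, in 4 mice with 1 array for each fraction of each mouse.

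All mice carried an acute myeloid leukaemia of the MLL-AF10 type, in which the histone methyltransferase gene MLL is fused to AF10, and no leukaemia-free or untreated sample was analysed here. Per the labels, a retrovirus had immortalised c-kit+ stem and progenitor cells from bone marrow, and these were given to syngeneic CD57BL/6 mice after sub-lethal irradiation, a dose that leaves part of the host's own blood formation in place. CD117pos cells had high surface c-kit (CD117, the stem cell factor receptor) and CD117neg cells had little or none. Each mouse is named by the ending of its 2 array titles (_948, _951, _952 or _953). Neither the ages of the mice nor whether their leukaemias arose from separate transductions is stated in the labels, so the p-values measure the spread between these mice.

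Caspases are proteases that lie inactive until a death signal arrives. Bound death receptors gather caspase-8, which cFLIP, the product of Cflar, resembles and restrains. Cytochrome c released from mitochondria makes APAF1 assemble into the apoptosome, which activates caspase-9. Caspase-6 acts downstream of the initiators, and caspase-2 is an initiator activated on a separate platform, the PIDDosome. XIAP blocks active caspases by binding them, whereas cIAP2, the product of Birc3, is a ubiquitin ligase of the TNF receptor complex. Birc3 and Cflar are both known targets of NF-kappaB, and myeloid cells at different stages of maturation are known to differ in their sensitivity to death signals.

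Most of these genes had less signal in the c-kit-high cells. By the brightest probe set of each gene, that with the highest mean over the 8 arrays, Birc3, Casp6, Cflar, Xiap and Casp8 fell in CD117pos, with folds from 4.83 for Birc3 to 1.45 for Casp8. Apaf1 and Casp9 were lower in all 4 mice without passing the test, and Casp2 had a log2 difference of 0.00 ± 0.15 (SE). The falls in the intensities as deposited took in a pro-apoptotic initiator (Casp8), an effector (Casp6) and 3 inhibitors. Only the calls of Birc3 and Casp6 held under every alternative run. Those of Casp8 and Xiap ended after quantile normalisation or centring on array medians, and the other probe sets of Xiap went different ways. Levels are intensities, and every difference is CD117pos minus CD117neg of log2(intensity + 16), a scale that understates changes of dim probe sets. Calls are adjusted p under 0.05 from limma's moderated test, in a fit that holds a term for each mouse, adjusted over all 45037 probe sets other than controls.

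**Figure D1:**
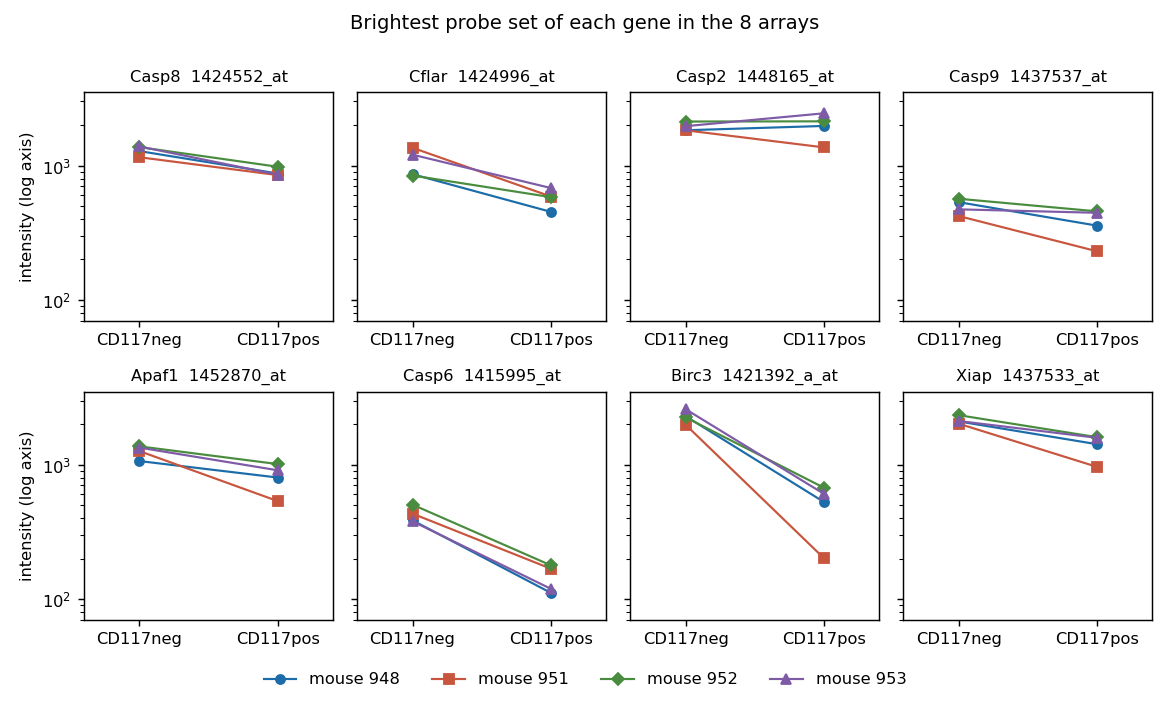
Intensity (log axis) of the brightest probe set of each of the 8 genes in the CD117neg and CD117pos array of each mouse, with 1 line per mouse. Every line falls for Casp8, Cflar, Casp9, Apaf1, Casp6, Birc3 and Xiap, while the lines of Casp2 go both ways. Birc3 has the steepest lines, from between 1985 and 2590 to between 201 and 673.

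Of the 23 probe sets, 11 were lower in CD117pos (47.8%), against 10.9% of all probe sets tested. None was called higher by limma, against 5.60% of all, while 1 had an unadjusted p under 0.05 in that direction. Dim probe sets are rarely called, so the 18 members with a mean intensity of at least 32 are given beside the same class of the array. In that class 10 members were lower, against 19.4% of 22823 probe sets, and 0 were higher, against 10.2%. The 1 other lower member, 1458715_at of Casp6, was dimmer than that. Probe sets of 1 gene are not independent of each other. By brightest probe sets, 5 of 8 genes were lower, against 12.9% of 18193 named genes, and the median difference of the 8 was -0.65, against -0.01 over all named genes. In 14 of the 23 probe sets every CD117pos array lay below every CD117neg array, as in 15.0% of all probe sets, and in none did they all lie above, as in 8.08% of all.

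Among all named genes, 2.25% had a more negative difference than Birc3 and 4.55% a more negative one than Casp6. The share was 9.56% for Cflar, 13.0% for Apaf1, 13.3% for Xiap, 15.8% for Casp8, 18.7% for Casp9 and 51.5% for Casp2. Birc3 and Casp6 thus lay in the lower tail of the whole comparison, and Casp2 at its middle.

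**Figure D2:**
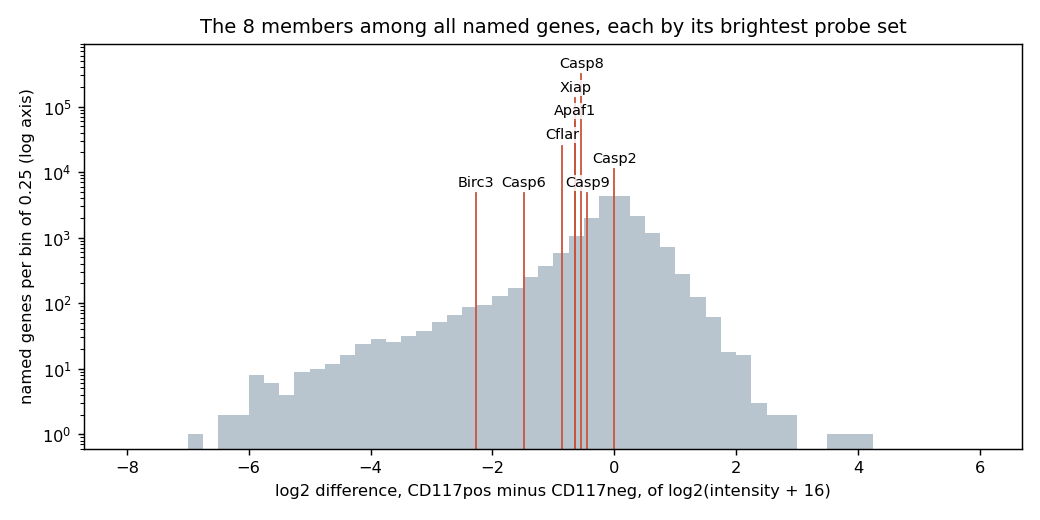
Number of named genes (log axis) per bin of log2 difference, CD117pos minus CD117neg, with a vertical line for the brightest probe set of each of the 8 genes. The lines stand between -2.27 (Birc3) and 0.00 (Casp2), and those of Apaf1 and Xiap nearly coincide at -0.65 and -0.64.

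The labels were checked on Kit, which encodes the sorted receptor. Its intensity was 28.6 ± 9.73 (SD, n = 4) in CD117neg and 751 ± 127 in CD117pos arrays. Of 8 markers listed for leukaemic myeloid cells, Kit, the myeloperoxidase gene Mpo (1868 ± 461 to 8583 ± 1656) and the neutrophil elastase gene Elane (1010 ± 411 to 5416 ± 773) rose in CD117pos. The pan-leukocyte CD45 gene Ptprc (7253 ± 333 to 3594 ± 715) and the integrin gene Itgam (488 ± 395 to 76.6 ± 46.0) fell, and the homeobox genes Hoxa9 and Meis1 and the progenitor marker Cd34 did not pass. Itgam and Cd34, at means of 76.6 and 36.7, were dim in CD117pos, and the other 6 had means of at least 751 there. Array medians lay between 31.1 and 32.8 in CD117neg and between 27.5 and 31.1 in CD117pos, lower in CD117pos in 4 of 4 mice (exact two-sided sign-flip permutation p = 0.125, the smallest that 4 mice allow). The CD117pos array of mouse _951 stood apart. Its log2 values correlated with those of the other CD117pos arrays at 0.928 to 0.930, against 0.985 to 0.987 among those others. Its ratio of 3′ to 5′ signal, a measure of RNA integrity, was 5.44 for Gapdh and 3.21 for beta-actin, against 2.56 to 2.77 and 1.72 to 1.91 in the other CD117pos arrays. The part of RNA integrity in the results was not tested, and results without that mouse are given below.

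Markers of mature myeloid cells moved with the same contrast. Of 6 measured monocyte and macrophage markers, 5 were lower in CD117pos, and their summed intensity ranged from 15821 to 20104 in CD117neg and from 940 to 4950 in CD117pos arrays. Of 7 neutrophil markers 6 were lower, with sums of 54082 to 60444 and 13589 to 31096. Whether fewer mature cells or less RNA per cell lowered a transcript cannot be told apart in such bulk fractions, and the part of maturation in the members' differences was not tested. Of 6 B cell markers only Cd22 was lower (sums of 474 to 730 and 141 to 299). No T cell, NK cell, erythroid or megakaryocyte marker passed the test, and 1 of these (a megakaryocyte marker, lower) had an unadjusted p under 0.05. The T cell sums were 143 to 181 and 96.5 to 813, and those of NK cells 74.9 to 80.0 and 58.4 to 102. Erythroid sums were 75.5 to 98.2 and 58.8 to 164, and megakaryocyte sums 79.1 to 120 and 76.5 to 126. The highest sum of each of these lists (T, NK, erythroid and megakaryocyte) was that of the CD117pos array of mouse _951. There Cd8a measured 537, Thy1 245, the megakaryocyte gene Itga2b 93.8 and the erythroid genes Epor and Alas2 69.5 and 54.9. The defining markers Cd3e, Ncr1 and Hba-a1 had means under 12 in both fractions, and Cd79a 39.1 and 32.3, where array medians were about 30. Other markers of these lists were brighter, with means of 190 and 126 for the B cell gene Cd79b and 96.4 and 186 for Cd8a.

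Promoter windows are shown for the genes at both ends of the range, the steepest falls (Birc3 and Casp6) and the gene whose estimate was nearest to 0 (Casp2). Each spans 250 bases before to 50 after a transcript start, 5′ to 3′ on the gene's strand, from RefSeq on GRCm38.p6, which held at least 1 window for all 8 genes. Capitals mark GC boxes, searched as GGGCGG on both strands.
Birc3 (chr9:7873121-7873420, minus strand): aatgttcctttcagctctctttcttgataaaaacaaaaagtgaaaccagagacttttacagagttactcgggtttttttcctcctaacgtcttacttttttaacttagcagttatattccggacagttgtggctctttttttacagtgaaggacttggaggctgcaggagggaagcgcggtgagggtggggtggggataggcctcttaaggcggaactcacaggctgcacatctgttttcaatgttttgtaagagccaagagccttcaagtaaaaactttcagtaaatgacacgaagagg
Casp6 (chr3:129901165-129901464, plus strand): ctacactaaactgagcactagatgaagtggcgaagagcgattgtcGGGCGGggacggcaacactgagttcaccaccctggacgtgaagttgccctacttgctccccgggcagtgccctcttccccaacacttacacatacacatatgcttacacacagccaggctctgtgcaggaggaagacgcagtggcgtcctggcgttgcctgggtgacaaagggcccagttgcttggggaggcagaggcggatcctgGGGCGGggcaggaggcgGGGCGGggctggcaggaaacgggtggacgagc
Casp2 (chr6:42264735-42265034, plus strand): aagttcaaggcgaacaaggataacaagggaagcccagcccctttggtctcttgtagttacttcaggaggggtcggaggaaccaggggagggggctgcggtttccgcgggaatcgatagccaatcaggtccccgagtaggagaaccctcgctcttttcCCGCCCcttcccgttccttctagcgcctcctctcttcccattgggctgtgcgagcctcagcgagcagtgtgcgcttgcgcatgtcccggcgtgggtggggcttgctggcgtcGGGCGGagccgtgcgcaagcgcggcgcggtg

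The Birc3 window had no GC box and 7 CG dinucleotides, the median of all 32851 windows being 7. Casp6 had 3 GC boxes and 16 CG dinucleotides, and Casp2 had 2 GC boxes and 26 CG dinucleotides. GC boxes were also found for Apaf1, Casp9 and Xiap, but in no window of Cflar or Casp8, and 35.7% of all windows held one. CG dinucleotides numbered 46 for Apaf1, 28 for Casp9, 12 for Cflar and 5 for Casp8, and 20, 5 and 2 in the 3 windows of Xiap. An NF-kappaB motif, searched as GGNNTTTCC on both strands, was in 5.82% of all windows and in none of the members. An E2F motif, searched likewise as TTTNGCGC, was in 1.38% and also in no member. These letters were sought only in these windows, and a match or its absence is a description of sequence.

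At the death receptor step, both Casp8 and its inhibitor Cflar fell. In mice _948, _951, _952 and _953, Casp8 (1424552_at, Entrez gene 12370) measured 1281, 1153, 1371 and 1387 in CD117neg and 872, 849, 979 and 855 in CD117pos arrays. All CD117pos values were below all CD117neg values, and the fractions differed by about the same amount in each mouse. The log2 difference was -0.54 ± 0.11 (limma, adjusted p = 0.0287). It was called neither after quantile normalisation (-0.32, adjusted p = 0.133) nor after centring on array medians (-0.44, adjusted p = 0.0529), nor with a pseudocount of 1 or without mouse _948, _952 or _953 (adjusted p from 0.105 to 0.123).

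Cflar (Entrez gene 12633) was measured by 5 probe sets, of which 4 were lower in CD117pos. The brightest, 1424996_at, measured 862, 1356, 843 and 1205 in CD117neg and 452, 588, 582 and 680 in CD117pos arrays of mice _948, _951, _952 and _953. The groups did not overlap, and the CD117neg arrays of mice _951 and _953 were the high ones. The log2 difference was -0.86 ± 0.14 (limma, adjusted p = 0.0141), a call that ended with a pseudocount of 1 (adjusted p = 0.0537) and without mouse _948 (0.0801) or _953 (0.0709). Probe sets 1425687_at and 1425686_at, designed from the same source sequence, differed by -0.88 ± 0.18 and -0.81 ± 0.18, and 1453482_at by -1.01 ± 0.17. Each of these 3 calls ended without mouse _948 or _952 (limma, adjusted p from 0.0662 to 0.148), those of 1425687_at and 1453482_at also without _953 (0.0647 and 0.0528). With a pseudocount of 1, 1425687_at and 1425686_at were not called (0.0657 and 0.0825), and 1425686_at was not called after quantile normalisation (0.0601) or centring (0.0556). The remaining one, 1449317_at, went from 98.3 ± 4.88 to 77.9 ± 8.27, a difference of -0.29 ± 0.12 that did not pass (adjusted p = 0.185).

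Cflar and Casp8 are neighbouring genes in the RefSeq annotation of GRCm38.p6. Their changes, each by the brightest probe set, were compared within each array, which takes out the scaling between arrays. The difference of Cflar was more negative than that of Casp8 in 4 of 4 mice, with values of Cflar minus Casp8 of -0.36, -0.75, -0.04 and -0.12 and a mean of -0.32 ± 0.32 (SD, n = 4). The exact two-sided sign-flip permutation p was 0.125, or 0.25 after Benjamini-Hochberg adjustment over 4 pairs, in a design that cannot go below 0.125.

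Casp2, whose product is an initiator placed outside the death receptor and apoptosome routes, did not differ beyond the spread of the mice. Its 1 probe set, 1448165_at (Entrez gene 12366), measured 1831, 1830, 2127 and 1964 in CD117neg and 1972, 1365, 2134 and 2449 in CD117pos arrays. The fractions overlapped, and the CD117pos arrays of mice _951 and _953 were the lowest and the highest of all 8. The log2 difference had a 95% interval from -0.38 to 0.38 (limma, adjusted p = 0.996), which leaves room for a change of up to that size in either direction. It was 0.22 after quantile normalisation (adjusted p = 0.379).

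At the mitochondrial step, neither Apaf1 nor Casp9 passed the test. Apaf1 (1452870_at, Entrez gene 11783) measured 1064, 1262, 1369 and 1340 in CD117neg and 802, 535, 1010 and 908 in CD117pos arrays of mice _948, _951, _952 and _953. The groups did not overlap, and the CD117pos array of mouse _951 was by far the lowest. The difference was -0.65 ± 0.17, just short of the threshold (limma, adjusted p = 0.0556). Without mouse _951 it was smaller and passed (-0.46, adjusted p = 0.0449), and after quantile normalisation it was -0.43 (adjusted p = 0.135). The dimmer probe set 1450223_at differed by -0.23 ± 0.11 (adjusted p = 0.241).

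Casp9 (1437537_at, Entrez gene 12371) measured 534, 421, 566 and 472 in CD117neg and 357, 230, 456 and 445 in CD117pos arrays. Each mouse had the lower value in CD117pos, but the groups overlapped. The difference was -0.44 ± 0.16 (limma, adjusted p = 0.122), and -0.27 after quantile normalisation. Probe set 1426125_a_at differed by -0.07 ± 0.14, and 1457816_at, at means of 2.02 and 2.60, is too near the floor of 1 to be read. Apaf1 minus Casp9, compared within arrays by their brightest probe sets, gave -0.21 ± 0.28 (SD, n = 4, exact permutation p = 0.375, adjusted p = 0.375).

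Casp6, the effector among the 4 caspases, fell in each mouse. Its probe set 1415995_at (Entrez gene 12368) measured 385, 432, 504 and 379 in CD117neg and 111, 168, 178 and 119 in CD117pos arrays of mice _948, _951, _952 and _953. The lowest CD117neg value was more than double the highest CD117pos value. The difference was -1.48 ± 0.12, a fold of 2.78 (limma, adjusted p = 0.00199), and lay between -1.65 and -1.28 in the single mice. This call held under every alternative run, with differences from -1.57 to -1.12. The dim probe set 1458715_at also fell, from 23.6 ± 4.09 to 7.37 ± 1.22. Its difference of -0.76 depended on the pseudocount, being -1.55 and -0.29 with 1 and 64, and its call ended without mouse _948, _952 or _953 (adjusted p from 0.0566 to 0.0600).

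The inhibitor gene Birc3 changed most. Its probe set 1421392_a_at (Entrez gene 11796) measured 2297, 1985, 2250 and 2590 in CD117neg and 527, 201, 673 and 606 in CD117pos arrays of mice _948, _951, _952 and _953. The groups were far apart, and the CD117pos array of mouse _951 was the lowest. The difference was -2.27 ± 0.25, a fold of 4.83 (limma, adjusted p = 0.00428). It was -3.21 in mouse _951 and -2.09 to -1.72 in the others, and -1.96 without mouse _951 (adjusted p = 0.00108). The call held under every alternative run. A dimmer probe set, 1425223_at, fell from 131 ± 39.8 to 46.6 ± 10.0, by -1.21 ± 0.25 (adjusted p = 0.0246), a call that ended with a pseudocount of 1 (0.0574) and without mouse _952 (0.0870) or _953 (0.118).

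Birc2, the gene next to Birc3 in the annotation, encodes the related ubiquitin ligase cIAP1. It measured 604 ± 66.4 and 529 ± 72.9, a difference of -0.19 ± 0.12 (limma, adjusted p = 0.385), and was singled out after its values were seen. The genes whose values over the 8 arrays were closest to those of Birc3 were Fam234a, Ly86 and Tfe3, with root mean square log2 distances of 0.12, 0.17 and 0.18 after each gene was centred on its mean. Ly86, encoding the MD-1 partner of a Toll-like receptor homologue, went from 2170 ± 205 to 507 ± 213, and the transcription factor gene Tfe3 from 544 ± 24.0 to 134 ± 51.1. For Casp2 the closest were Rfwd3, Katna1 and Rexo4, at 0.04, 0.05 and 0.07. The 8 arrays behind each distance are the same for all genes, and the distances are a description with no test.

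The 7 probe sets of Xiap (Entrez gene 11798) went different ways. The brightest, 1437533_at, measured 2100, 2020, 2337 and 2114 in CD117neg and 1420, 963, 1602 and 1585 in CD117pos arrays of mice _948, _951, _952 and _953. The groups did not overlap, and mouse _951 was again lowest in CD117pos. The difference was -0.64 ± 0.15 (limma, adjusted p = 0.0359). The call ended after quantile normalisation (-0.43, adjusted p = 0.0921) or centring (-0.55, 0.0667), with a pseudocount of 1 (0.103), without mouse _948, _952 or _953 (0.0905 to 0.127), and with the mean of all 7 probe sets (-0.24, 0.148).

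Probe set 1456088_at, designed from the same source sequence as the brightest, measured 824, 371, 599 and 474 in CD117neg and 201, 147, 254 and 287 in CD117pos arrays. These groups did not overlap either, and the difference was -1.27 ± 0.21 (limma, adjusted p = 0.0138), a call that ended without mouse _948 (0.0507) or _952 (0.0678). Against these, 1450232_at measured 58.8, 92.2, 98.7 and 125 in CD117neg and 146, 123, 150 and 174 in CD117pos arrays. Each mouse had the higher value in CD117pos, although the groups overlapped at 123 and 125. Its difference of 0.61 ± 0.16 was just short of the threshold (adjusted p = 0.0558). It passed after quantile normalisation (0.76, adjusted p = 0.0292), after centring (0.70, 0.0385) and without mouse _951 (0.69, 0.0418). Probe sets 1421394_a_at and 1450231_a_at, from the same source sequence as 1450232_at, had means under 20 in both fractions and differences of -0.12 and -0.10. Of the other 2, 1453385_at differed by -0.37 ± 0.13 and 1426636_a_at by 0.22 ± 0.13, neither past the test. The part of the transcript that each probe set reads was not analysed here.

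**Figure D3:**
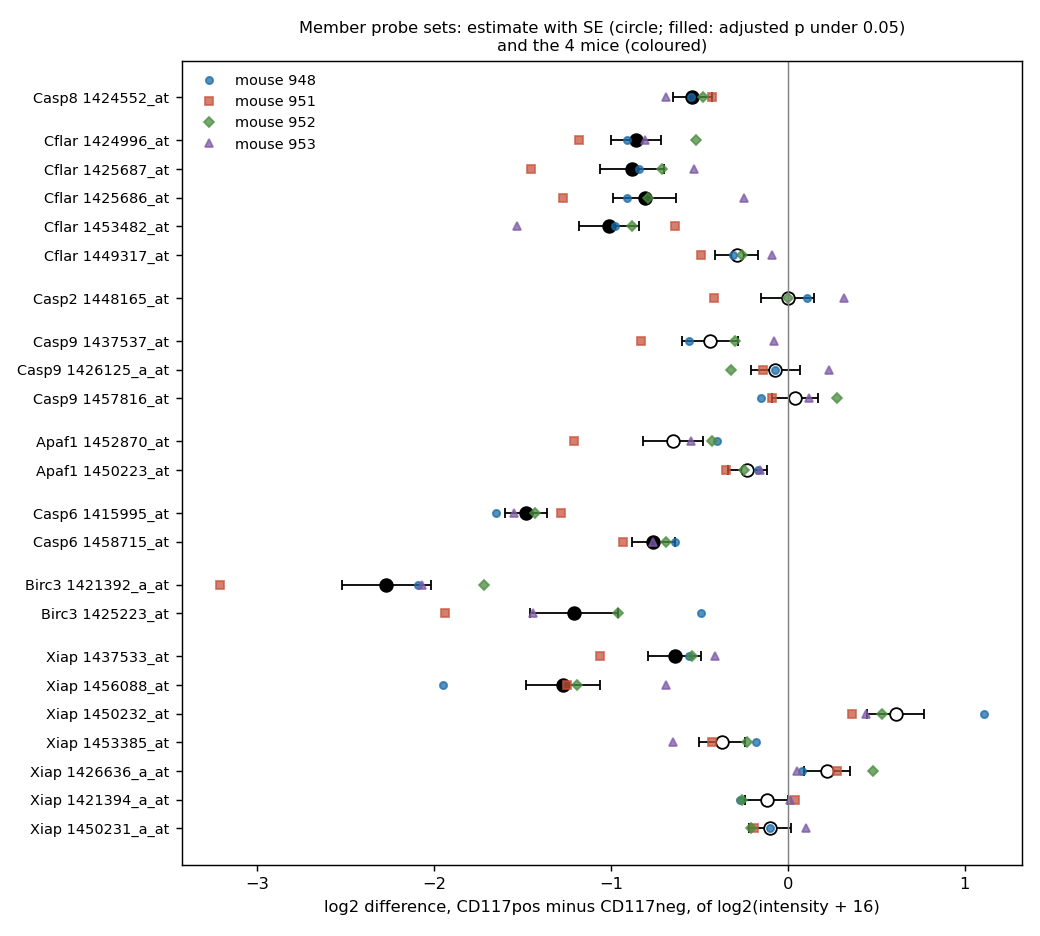
Log2 difference, CD117pos minus CD117neg, of each of the 23 probe sets. Large circles with bars give the estimate and its SE, filled where adjusted p was under 0.05, and small coloured symbols give the 4 mice. Both Birc3, both Casp6 and 4 of 5 Cflar probe sets are filled on the left of 0, whereas the Xiap probe sets spread from -1.27 to 0.61.

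Within arrays, by the brightest probe set of each gene, the fall of Birc3 exceeded that of Xiap in 4 of 4 mice. Values of Birc3 minus Xiap were -1.53, -2.15, -1.18 and -1.66. The mean was -1.63 ± 0.40 (SD, n = 4), several times its spread, with an exact two-sided permutation p of 0.125 (adjusted p = 0.25). This order depends on the probe sets, as 1425223_at of Birc3 differed by -1.21 and 1456088_at of Xiap by -1.27. By brightest probe sets, Xiap minus Casp9 gave -0.20 ± 0.14 (exact permutation p = 0.25, adjusted p = 0.333). The brightest probe set had its lowest CD117pos value in mouse _951 for 6 of the 8 genes, the exceptions being Casp6 and Cflar. That array stood apart over all probe sets, and the share over all named genes is not given here, so this is no trait particular to the members. In limma's F-test of the mouse terms 0 of 23 probe sets passed, and 0 had an unadjusted p under 0.05 (smallest 0.0625). Over all 45037 probe sets 0 passed as well, so this is no trait of the members. A mouse term is shared by both fractions of a mouse, so the test does not address a deviation of a single array.

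Leaving out mouse _951 gave 12 lower and 1 higher among the 23 probe sets, the last being 1450232_at of Xiap. Over all 45037 probe sets, 3575 were higher in that fit. Without mouse _948, _952 or _953 only 3, 3 and 4 were lower, while the share of all probe sets lower was 4.21%, 5.06% and 4.54%, and 12.4% without mouse _951. After quantile normalisation and after centring, 8 were lower and 1 higher, against 8.27% and 8.97% lower over all probe sets. Higher ones numbered 3945 and 3317 of all 45037 under these 2 scalings. By their brightest probe sets, the direction of the Birc3, Casp6, Cflar, Casp8 and Xiap differences was the same under both scalings. The 1 probe set called higher was again 1450232_at of Xiap.

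Around the members, 67 of 74 listed genes of the pathway were measured, and 19 of them fell and 2 rose. By limma in these intensities, 12.9% of named genes were lower and 7.53% higher. Of the same genes, 9 fell and 0 rose without mouse _948, 21 and 4 without _951, 11 and 0 without _952, and 9 and 0 without _953. In these fits, in the same order, 4.21%, 12.4%, 5.06% and 4.54% of all probe sets were lower. Higher ones numbered 456, 3575, 740 and 513 of 45037. Such shares of named genes are not given here, and these backgrounds also stand beside the counts of the single lists below. The median difference over the 67 genes was -0.19, against -0.01 over all named genes.

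Of 4 measured caspase genes outside the members, 2, Casp1 and Casp4, fell and 0 rose (0 at an unadjusted p under 0.05). Casp1, encoding the enzyme that matures interleukin-1 beta, went from 1393 ± 112 to 584 ± 64.3, a difference of -1.24 ± 0.14 (limma, adjusted p = 0.00405). Casp4, a sensor of intracellular lipopolysaccharide, went from 852 ± 200 to 341 ± 100, by -1.29 ± 0.11 (adjusted p = 0.00224). Both calls held under every alternative run. Casp12 and Casp14 had means under 25 in both fractions.

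Of 14 genes for death receptors, ligands and adaptors, 5 fell and 0 rose (0 at an unadjusted p under 0.05). The death receptor gene Fas went from 182 ± 79.6 to 33.6 ± 6.60 (-1.91 ± 0.22, limma adjusted p = 0.00470), and Dedd2, encoding a death effector domain protein, from 629 ± 71.8 to 232 ± 51.1 (-1.40 ± 0.18). Both calls held under every alternative run. The cytokine gene Tnf differed by -1.05 ± 0.23 (limma, adjusted p = 0.0314) and by -0.61 with a pseudocount of 64. Its call ended with a pseudocount of 1 (0.0666) and when mouse _948, _952 or _953 was left out. Without mouse _948, _952 or _953 the list had 3 falls, and without mouse _951 it had 5 falls and 2 rises.

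Factors that act with Apaf1 and Casp9 mostly did not pass, as was so for most named genes (12.9% lower and 7.53% higher). Of 12 genes for apoptosome, PIDDosome and mitochondrial factors, 1 rose and 0 fell by limma, with 2 lower at an unadjusted p under 0.05. The one that rose was Htra2, encoding a mitochondrial protease that antagonises XIAP, from 1052 ± 54.2 to 1761 ± 193 (0.73 ± 0.12, adjusted p = 0.0121). Its call ended without mouse _948, _952 or _953 (0.0531 to 0.0692) and under a pseudocount of 1 (0.0570). Without mouse _951, 1 gene of the list fell.

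Of 9 genes for other inhibitor of apoptosis proteins and their antagonists, 4 fell and 0 rose (0 at an unadjusted p under 0.05). Card6, encoding a caspase recruitment domain protein, went from 607 ± 51.4 to 154 ± 57.5 (-1.96 ± 0.28, limma adjusted p = 0.00856), a call that ended without mouse _953 (0.0517). Naip5, whose product senses bacterial flagellin, went from 1641 ± 239 to 559 ± 148 (-1.56 ± 0.13, adjusted p = 0.00209). The Naip genes are near-identical copies, so their probe sets may share signal. Xaf1, encoding an antagonist of XIAP, differed by -1.54 ± 0.23 (adjusted p = 0.0103). It was not called when its probe sets were averaged (-0.88, adjusted p = 0.0555) or when mouse _948 or _952 was left out. Without mouse _948, _952 or _953 the list had 2 falls.

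Among 12 caspase substrates and factors of DNA fragmentation, 2 fell and 1 rose. Rock1, a kinase gene whose product drives membrane blebbing once cleaved, went from 2674 ± 319 to 1397 ± 234 (-0.94 ± 0.18, limma adjusted p = 0.0206). Lmna, the lamin A/C gene, differed by -0.95 ± 0.16, but by -0.53 with a pseudocount of 64 and with an adjusted p of 0.286 without the mouse block. Dffb, encoding the caspase-activated DNase, rose from 231 ± 7.69 to 345 ± 37.8 (0.54 ± 0.13, adjusted p = 0.0395). The Dffb call ended without any 1 of the 4 mice, the Rock1 call without mouse _948 or _953, and the Lmna call without mouse _948 or _952. With a pseudocount of 1 all of these calls ended (limma, adjusted p = 0.112 for Dffb, 0.0626 for Rock1 and 0.0656 for Lmna). An intensity trend also ended the Dffb call (0.0531). The list had 0, 3, 1 and 1 falls without mice _948, _951, _952 and _953, and 2 rises after either scaling.

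The neighbours of Birc3 and Cflar in TNF receptor signalling also fell in part, 6 of 16 with 0 rises (0 at an unadjusted p under 0.05). Tnfaip3, encoding the A20 inhibitor of NF-kappaB, went from 544 ± 161 to 181 ± 60.3 (-1.52 ± 0.21, limma adjusted p = 0.00747), by -0.61 with the mean of its probe sets. Nfkbie, encoding another NF-kappaB inhibitor, went from 314 ± 65.8 to 101 ± 30.0 (-1.51 ± 0.11, adjusted p = 0.00154), and held under every alternative run. Tab2, encoding an adaptor of the TAK1 kinase, went from 3107 ± 254 to 1583 ± 334 (-0.99 ± 0.15). The Tnfaip3 call ended without mouse _953 and the Tab2 call without mouse _948 or _953. The list had 2, 6, 3 and 1 falls without mice _948, _951, _952 and _953.

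**Figure D4:**
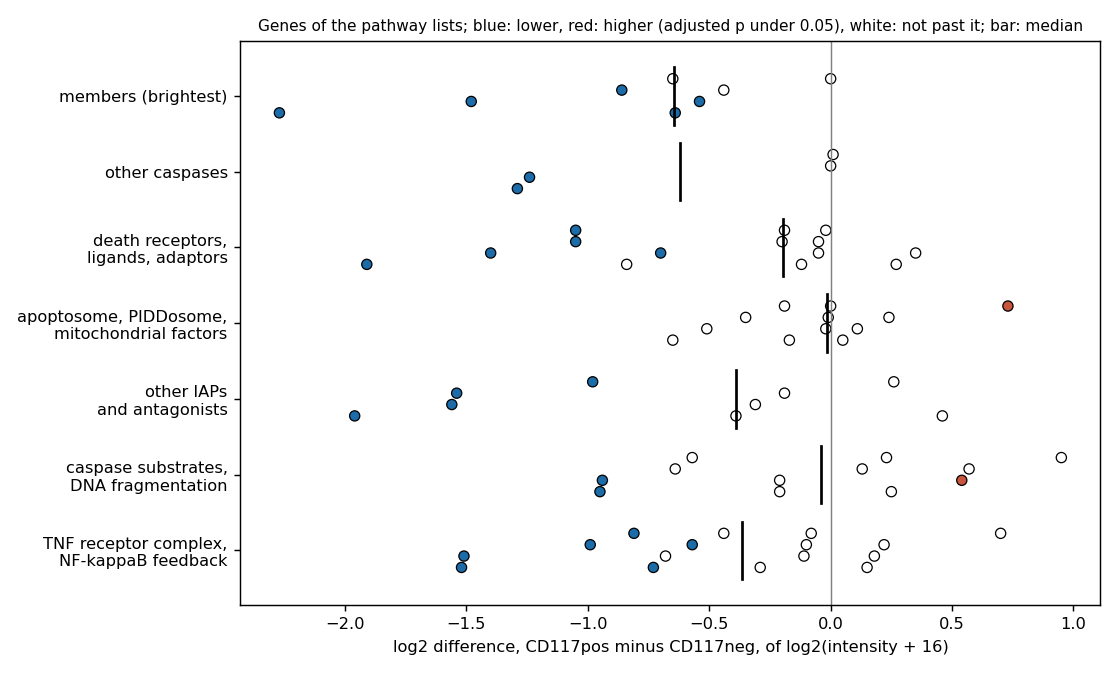
Log2 difference, CD117pos minus CD117neg, of the 8 members (brightest probe sets) and of the genes of 6 pathway lists, with 1 point per gene, coloured where adjusted p was under 0.05, and a bar at the median. The median is -0.65 for the members, -0.62 for the other caspases and -0.01 for the apoptosome list, whose 1 coloured point, Htra2, lies to the right of 0. No gene of the other caspases lies near their median, which falls between Casp1 and Casp4 (-1.24 and -1.29) and the dim Casp12 and Casp14 (0.00 and 0.01).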

How the data were processed

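PolyA RNA of 8 sorted cell samples was amplified in 2 cycles, labelled with biotin and hybridised to 1-colour Affymetrix arrays, per the labels' protocols. The authors deposited linear intensities, 1 per probe set and array, floored at 1. How probes were summarised and arrays scaled is not stated in the sources used. The intensities were used as deposited. Arrays have no read depth, and their number limits the precision.

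Gene names came from GEO's platform annotation. In it, 34945 probe sets other than controls had 1 symbol, 932 had several and 9160 had none listed, and the last 2 classes were not named. The 64 control probe sets were left out.

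Log2(intensity + 16) was fitted with limma 3.58.1 in R 4.3.3 (lmFit, eBayes, two-sided), with fraction and mouse as terms, and adjusted by the Benjamini-Hochberg method over 45037 probe sets at a threshold of 0.05. The fit was tested on simulated data. The design text states that each mouse gave both fractions. Deviations from the fraction means correlated within a mouse at 0.241, 0.218, 0.323 and 0.108 (mice _948, _951, _952 and _953) over 22823 probe sets, and at most at 0.135 between mice. Single values were compared with exact sign-flip permutation tests over mice. Figures were drawn with matplotlib 3.10.9.

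The members and lists were chosen with earlier results of these data known. Genes were named by rule: all members, Kit, up to 3 genes of each list with the largest difference past the threshold (or the largest difference), and the 3 genes closest to the members with the most positive and most negative difference. Alternatives were 2 other scalings, pseudocounts of 1 and 64, a minimum mean of 32, an intensity trend, no mouse block, other treatments of probe sets, and leaving out single mice or the CD117pos array of mouse _951.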

Additional observations from a re-analysis of the deposited data

Results flagged for a closer look

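Of 46 groups of 4 arrays (2 fractions of 23 probe sets), 1 held an array far from the others by Dixon's criterion, fewer than the 1 in 20 that chance gives. For the Xiap probe set 1450231_a_at, the CD117pos array of mouse _952 measured 14.1, against 16.5 to 16.9 in the other 3. All of these lie below the array medians.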

How the results depend on the processing

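The calls of Birc3 and Casp6 by their brightest probe sets held under every alternative. Without the mouse block 11 member probe sets were lower and 0 higher, as with it, and no member's call changed. Of the pathway genes 20 fell and 3 rose in that fit, against 19 and 2. Its calls over all probe sets were 5235 lower and 2649 higher, against 4892 and 2524 with the block. Over all probe sets, 3945 were higher after quantile normalisation, 1134 with a pseudocount of 1 and 3900 with neither the block nor the CD117pos array of _951, against 2524, and 2930 were lower with a pseudocount of 1, against 4892. Higher ones made up 34.0% of the calls as deposited, 51.4% after quantile normalisation and 45.1% after centring, which moved the median difference of all probe sets from -0.02 to 0.04 and 0.08. Leaving out 1 mouse gave 456 to 3575 higher and 1894 to 5571 lower. Of the members, 3 genes fell after quantile normalisation or centring and 2 with a pseudocount of 1, against 5, and 2 to 6 without 1 mouse. The shares of named genes lower under these settings are not given here. Lower calls over all probe sets also numbered fewer, 3723 after quantile normalisation, 4039 after centring and 2930 with a pseudocount of 1, against 4892. These counts of genes therefore do not set the members apart. With a pseudocount of 1, 5 probe sets were lower, and 3 to 12 without 1 mouse. Probe set 1450232_at of Xiap was the 1 called higher after quantile normalisation, after centring, with a pseudocount of 64, with a minimum mean of 32 and with neither the block nor the CD117pos array of _951, and 0 to 1 were called higher without 1 mouse. With a pseudocount of 1, 0 pathway genes rose and 11 fell, against 2 and 19. The rises numbered 1 under an intensity trend or when probe sets of shared sequence were dropped, and 5 with neither the block nor that array. Without 1 mouse, 0 to 4 rose and 9 to 21 fell.

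Casp8 lost its call after quantile normalisation (-0.32), centring (-0.44) and with a pseudocount of 1 (-0.54), and gave -0.57 to -0.49 without 1 mouse. Cflar lost it with a pseudocount of 1 (-0.87), and gave -0.97 to -0.75. Xiap lost it after quantile normalisation (-0.43), centring (-0.55), with a pseudocount of 1 (-0.65) and when its 7 probe sets were averaged (-0.24), and gave -0.72 to -0.50. Apaf1 passed with a minimum mean of 32, an intensity trend or 1 probe set per gene (-0.65 each) and with neither the block nor the CD117pos array of _951 (-0.47), and gave -0.73 to -0.46. Casp2 changed sign within -0.10 to 0.14 without 1 mouse. Probe set 1426125_a_at of Casp9 was 0.06 after quantile normalisation, 0.02 after centring and -0.18 to 0.01 without 1 mouse (above 0 without mouse _952), and 1457816_at was -0.04 to 0.10 (below 0 without mouse _952). The cause of these changes was not tested. Leaving out a mouse leaves 3 pairs, and signals near the floor of 1 cannot be ranked.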
